A study of Mus musculus with 20 samples.

Results

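The cytosolic ribosomal protein genes were described across 6 groups of a mouse melanoma line that had received p65/RelA constructs. Members were the probes whose accession maps to a mouse protein-coding gene named Rpl, Rps or Rplp with a number, without -ps pseudogenes and without the Rps6k kinases. The array carried 174 probes for 86 such genes, out of 21612 symbols on the array, and 83 of the 86 passed the filter on low signal, out of 18738 genes measured. No probe was found by the rule for Rpl37 and Rps27rt. Of the 86, 42 encode proteins of the large subunit, 30 proteins of the small subunit and 3 proteins of the P-stalk, while 8 are paralogs or genes with a like name and 3 are retrocopies annotated as coding.

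The cells were B16, a melanoma line, in a form that carries the leukaemia fusion kinase Bcr-Abl, and all groups shared this background; the strain label reads mouse C3H eOuJ. One group received wild-type p65/RelA (WT, 3 arrays), the transcription activating subunit of NF-kB. A second received D361E, a form in which residue 361 is changed and which the design text calls non-cleavable (3 arrays). The others received residues 1 to 361 (N-fragment, 3 arrays), residues 362 to 549 (C-fragment, 3 arrays), both fragments (N+C, 5 arrays) or, as the treatment protocol is read here, a void plasmid (void, 3 arrays). The sample labels of that group read Blanck and do not name the plasmid, and every difference from void rests on this reading. Promoter, transfection efficiency and clonal origin are not stated in the sources used here, and the labels do not say whether replicates were separate cultures, so p-values cover the spread between these samples only, which may be technical. The array was a 1-colour Agilent design hybridized with total RNA.

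The cytosolic ribosome joins a small subunit, which reads the mRNA, to a large subunit, which forms peptide bonds, and each ribosome holds a single copy of most of its proteins. Their mRNAs are among the most abundant of a growing cell and usually begin with a run of pyrimidines at the cap, the 5′ terminal oligopyrimidine or TOP motif, through which mTOR and Larp1 adjust their translation. Several free ribosomal proteins, among them Rpl5, Rpl11 and Rps7, bind Mdm2 and so connect ribosome assembly to p53, and RPS3 has been reported in human cells as a partner of p65 in NF-kB complexes.

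Windows at the annotated start sites are shown because the TOP motif is a sequence feature described for mRNAs of this family. Each runs from 20 bases before the RefSeq start to 10 bases from it on, on the gene's own strand in GRCm38.p6, and capitals mark a run of at least 6 C or T bases that holds the start base or the base before it. The first 4 are core members picked because they have such a run, and the last 2 are paralogs without one. Core members without a run, such as Rpl9 and Rps7, are not shown.
Rpl34 (chr3:130730328-130730357, minus strand): ccgCCCCTTCCTTTTCCTCTTCCggggacg
Rpl35a (chr16:33056462-33056491, plus strand): gcgcggcggggcttgCCTTCCTCTTTCCgc
Rplp2 (chr7:141447631-141447660, plus strand): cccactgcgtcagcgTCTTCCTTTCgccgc
Rps27 (chr3:90213639-90213668, minus strand): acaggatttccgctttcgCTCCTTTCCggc
Rps27l (chr9:66946066-66946095, plus strand): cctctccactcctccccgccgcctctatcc
Rpl22l1 (chr3:28805488-28805517, plus strand): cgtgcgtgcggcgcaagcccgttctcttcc

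The run was 20 bases long in Rpl34, 13 in Rpl35a, 10 in Rplp2 and 9 in Rps27, while the bases at the start formed a run of 2 in Rps27l and 3 in Rpl22l1. Of the 86 members 66 had a promoter in the RefSeq table. A run of at least 6 was found at 1 or more annotated starts of 23 of these 66 (34.8%), and of 20 of the 55 core and P-stalk members among them (36.4%), against 3384 of all 27025 genes of the table (12.5%). It was found in 3 of 11 paralogs, like-named genes and retrocopies (27.3%) and in 8 of 69 mitochondrial ribosomal protein genes (11.6%). An NF-kB consensus on either strand of the 250 bases before the start was found in 2 members (Rpl6 and Rps19; 3.0% of 66), against 8.2% of all genes of the table. These matches describe letters at annotated starts, and an annotation that is off by a few bases moves a short run out of the window.

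Facts of the whole series that touch the family are these. On 20 arrays 21982 to 24897 of 43020 non-control spots were well above background, and none was saturated. The arrays sat on 5 slides of 4. Slide 2 held D361E 2, N-fragment 1, N+C 5 and void 3, and several members stood apart there, as given below. The N+C arrays lay in 2 sets, N+C 1 to 3 and N+C 4 and 5, with N+C 1 and N+C 4 on the same slide. Every array showed signal above background for all 10 markers of melanocytes, and likewise for 3 of 10 haematopoietic, 2 of 4 macrophage and 1 of 6 fibroblast markers. Rela rose with the N-fragment (log2 0.36 ± 0.07, adjusted p = 0.00089) while with WT the difference did not pass the test (log2 0.07 ± 0.07, adjusted p = 0.571). Where its probe lies relative to either fragment was not determined. Values after ± are standard errors for log2 differences and standard deviations for group levels, and adjusted p-values are from limma with Benjamini-Hochberg adjustment over all 18738 genes.

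All 83 measured members were above background on all 20 arrays, and most were among the brightest genes of the cell line. Levels are given as log2 processed signal minus the 75th percentile of that array's non-control probes. The members' median level was 7.37, against −0.59 over all genes measured, and their median percentile among all genes was 98.7. The brightest 1% of genes held 35 members and the brightest 5% held 74. Together they took 6.88 to 7.72% of the summed signal of all genes on an array. Probes differ in how well they bind, so the order of members is an order of probe signals rather than of transcripts.

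The brightest probes were those of the large subunit proteins Rpl41 (level 8.36) and Rpl37a (8.34), followed in the small subunit by Rps16 (8.25) and Rps14 (8.22). The P-stalk, which recruits the translation factor GTPases, had levels of 8.05 for Rplp2, 8.05 for Rplp0 and 7.73 for Rplp1. Rps21 was the dimmest of the small subunit (4.21) and Rpl36a of the large subunit (5.47). The paralogs were lower and wider apart: Rps27l had a level of 6.67, Rpl36al 5.81, Rpl22l1 5.48 and Rpl7l1 0.10. Rps19bp1, a protein that binds the small subunit protein Rps19 and is no ribosomal protein itself, had a level of 3.87. The retrocopies Rpl37rt (8.04) and Rpl32l (7.34) were as bright as core members, and Rps23rg1 (−3.04) was the dimmest member measured. Cross-hybridization between such copies and their source genes was not tested. The muscle paralog Rpl3l and the testis paralogs Rpl39l and Rpl10l were not measured.

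**Figure D1:**
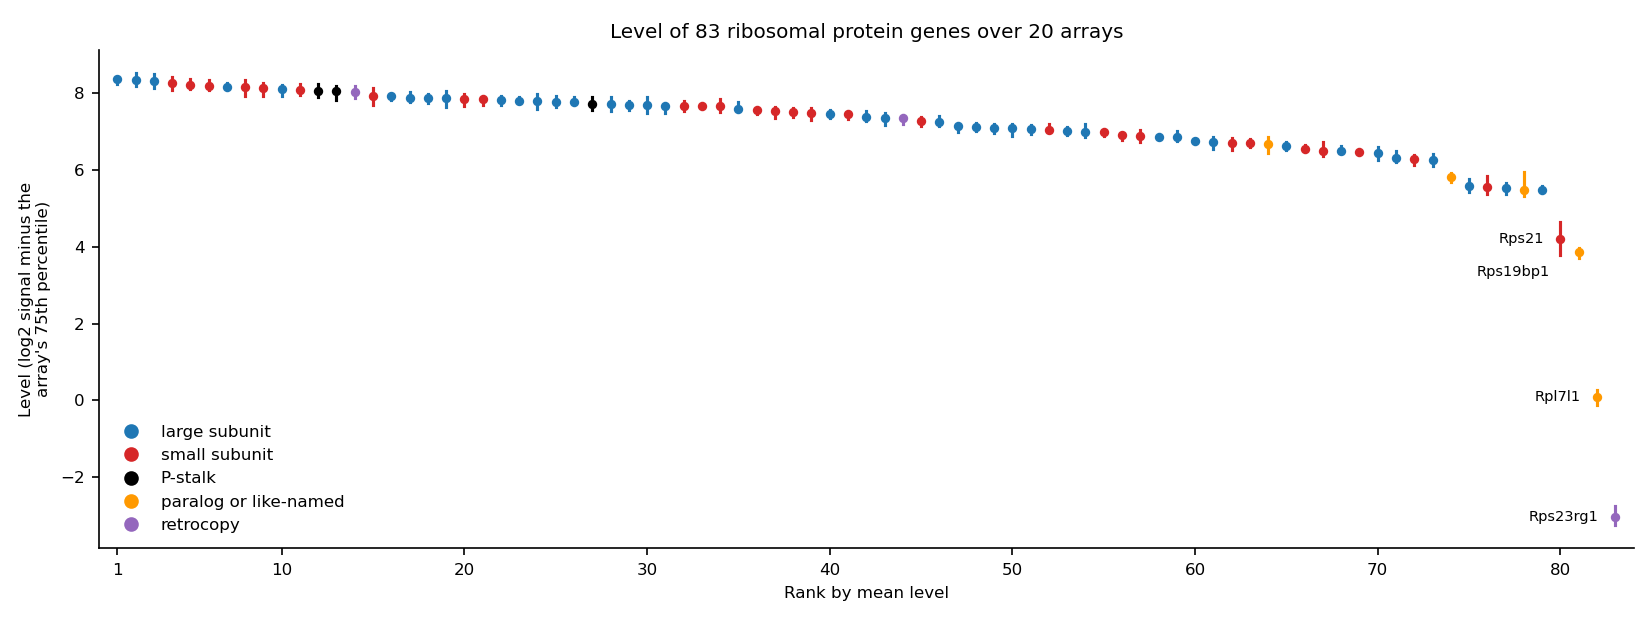
Level of each of the 83 measured ribosomal protein genes (vertical axis, log2 processed signal minus the array's 75th percentile), by rank from brightest to dimmest (horizontal axis). Points are means over 20 arrays, vertical lines span the lowest to the highest of the 6 group means, and colours give the class. Most members lie above 6, and Rps21, Rps19bp1, Rpl7l1 and Rps23rg1 lie below 5.

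Members varied less than the typical gene, both between groups and within them. The median standard deviation of the 6 group means was 0.101 for members and 0.195 for all genes, and the median standard deviation within groups was 0.0953 for members and 0.171 for all genes. The members' median level was also far higher (7.37 against −0.59), and the spread of equally bright other genes was not worked out. After each array's family median was subtracted, Rpl10a (standard deviation 0.024) and Rpl11 (0.025) were among the 4 members whose group means varied least. Group means varied most for Rps21 (0.31), Rpl22l1 (0.23), Rps23rg1 (0.21) and Rps3 (0.19).

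Whether the family as a whole was lower or higher than in void cells depended on how the arrays were scaled to each other. Each construct's mean was below void relative to the 75th percentile, after quantile normalization and after cyclic loess normalization. Without scaling only the D361E mean was. Relative to the 75th percentile, the family median was 7.27 ± 0.03 with WT, 7.33 ± 0.07 with D361E, 7.41 ± 0.07 with the N-fragment, 7.43 ± 0.05 with the C-fragment and 7.38 ± 0.03 with N+C, against 7.50 ± 0.06 in void cells (SD, n = 3, and 5 for N+C). The 3 WT arrays lay between 7.25 and 7.30, below the void arrays, which lay between 7.45 and 7.56. All D361E arrays (up to 7.39) and all N+C arrays (up to 7.43) also lay below void, while the N-fragment and C-fragment arrays overlapped it. After quantile normalization the family median was 17.39 ± 0.02 with WT, 17.34 ± 0.04 with D361E, 17.40 ± 0.02 with the N-fragment, 17.39 ± 0.01 with the C-fragment and 17.33 ± 0.01 with N+C, against 17.40 ± 0.01 in void cells. The WT, N-fragment and C-fragment arrays overlapped void on that scale. The 5 N+C arrays (17.32 to 17.34) and the 3 D361E arrays (17.30 to 17.38) lay below the 3 void arrays (17.39 to 17.41). With no scaling between arrays, the family median was 17.44 ± 0.06 with WT, 17.25 ± 0.10 with D361E, 17.51 ± 0.09 with the N-fragment, 17.43 ± 0.04 with the C-fragment and 17.36 ± 0.07 with N+C, against 17.27 ± 0.01 in void cells. Here the WT, N-fragment, C-fragment and N+C arrays all lay above the void arrays.

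**Figure D2:**
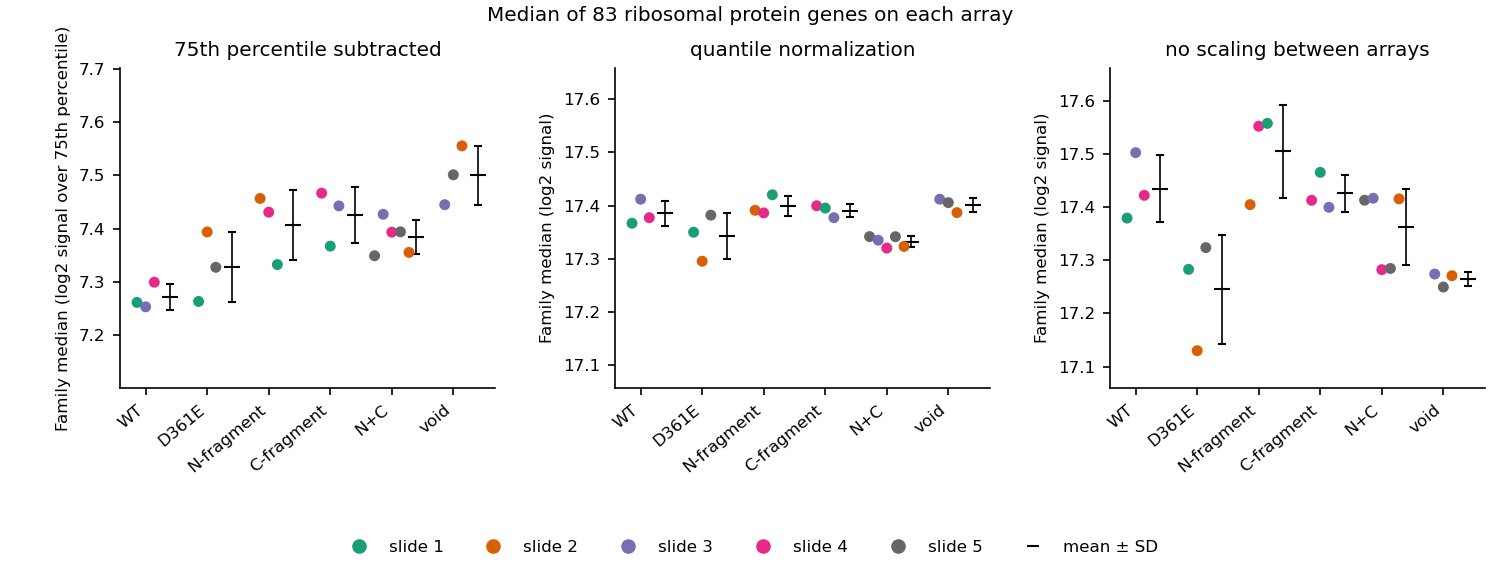
Median log2 signal of the 83 ribosomal protein genes on each array (points, coloured by slide) by group, with group means and standard deviations, under 3 scalings between arrays. Each vertical axis spans the same 0.6 log2 units. Relative to the 75th percentile the WT arrays are below the void arrays, after quantile normalization they overlap, and without scaling they are above.

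The family shared the unscaled shift with other genes, since the median of all 18738 genes was also higher than in void cells without scaling, by 0.37 with WT, 0.12 with D361E, 0.28 with the N-fragment, 0.21 with the C-fragment and 0.19 with N+C. The members' unscaled medians were 0.17, 0.00, 0.24, 0.18 and 0.11 in that order of constructs, each below the all-gene median. Within slides, the median difference of the members relative to the 75th percentile was −0.21 for WT against void on slide 3, −0.09 and −0.18 for D361E against void on slides 2 and 5, and −0.11 for the N-fragment against void on slide 2. It was 0.02 for the C-fragment against void on slide 3, and −0.15, −0.01 and −0.11 for N+C against void on slides 2, 3 and 5. Each rests on 1 array of either group, or on 2 N+C arrays for slide 5.

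Other genes as bright as the members also had medians below void in most level ranges and comparisons, though not by the same amount. With WT, the median log2 difference from void relative to the 75th percentile was −0.24 for the 39 members with a mean level from 7 to 8, and −0.22 for the 308 other genes in that range. Between 6 and 7 it was −0.18 for 20 members and −0.11 for 404 other genes, and at 8 and above −0.32 for 14 members and −0.28 for 27 other genes. Genes with levels between 0 and 2 had a median of −0.01. In the range from 7 to 8, members and other genes had medians of −0.15 and −0.12 with D361E, −0.09 and −0.11 with the N-fragment, −0.08 and −0.07 with the C-fragment, and −0.10 and −0.08 with N+C. At 8 and above they had −0.15 and −0.11 with D361E, −0.19 and −0.16 with the N-fragment, −0.12 and −0.10 with the C-fragment, and −0.12 and −0.07 with N+C. Between 6 and 7 they had −0.15 and −0.12 with D361E, −0.09 and −0.04 with the N-fragment, −0.05 and 0.00 with the C-fragment, and −0.05 and −0.04 with N+C. The level ranges were chosen after these data were seen, and no test of the difference between members and other bright genes was made.

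**Figure D3:**
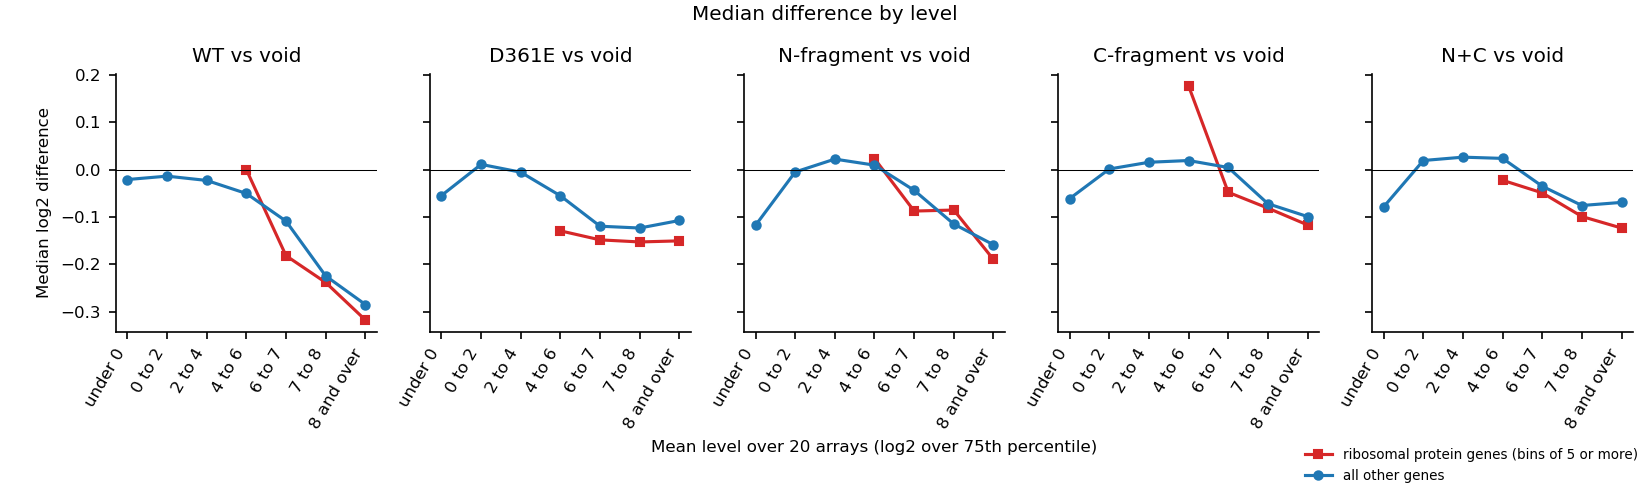
Median log2 difference from void (vertical axis, relative to the 75th percentile) of ribosomal protein genes (squares, ranges with at least 5 members) and of all other genes (circles), by range of mean level over 20 arrays. Both lines fall towards the brightest genes with WT, where members from 7 to 8 are at −0.24 and other genes at −0.22.

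With WT, 23 of 83 members fell relative to the 75th percentile and 0 rose, with a median log2 difference of −0.23 against −0.03 over all genes. Of all genes 6.16% fell and 3.22% rose in this comparison, and at an unadjusted p under 0.05 there were 56 members lower and 0 higher (15.1% and 8.02% of all genes). The 23 held 10 of 44 large subunit genes (retrocopies counted with their subunit), 10 of 31 small subunit genes, 2 of 3 P-stalk genes and 1 of 5 paralogs. After quantile normalization 1 member fell and 0 rose (4.68% and 3.97% of all genes). With no scaling 22 rose and 0 fell (39.6% and 1.35% of all genes). When arrays were instead scaled to the family median, 1 member was called, Rpl7l1, which was higher (adjusted p = 0.0212), and 20.6% of all genes were called in either direction. This scaling removes the members' shared shift and moves all other genes by the same amount the other way. Few member calls are therefore built in, and the count cannot be set against the all-gene share, here or below. Without void 3 the count relative to the 75th percentile was 4, without void 2 it was 9, without WT 1 it was 11 and without WT 2 it was 6. The summed level of the 10 melanocyte markers was 10.2 to 10.29 with WT, against 10.38 to 10.48 in void cells, with 1 marker lower and 1 higher. That of the 3 haematopoietic markers measured, of 10 listed, was 2.25 to 2.43 with WT, against 2.75 to 2.91 in void cells, with 1 marker lower. The 4 fibroblast markers measured, of 6 listed, summed to 0.05 to 0.2 with WT, against 0.34 to 0.7 in void cells. The part of these markers in the result was not tested.

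The 4 largest called falls with WT whose groups did not overlap were Rps27a, which encodes a small subunit protein fused to ubiquitin, the large subunit proteins Rpl13 and Rpl38, and Rplp0, the P-stalk protein that anchors the stalk to the ribosome. Rps27a had levels of 7.92, 7.88 and 7.97 on the WT arrays, against 8.21, 8.41 and 8.40 on the void arrays (log2 −0.42 ± 0.11, adjusted p = 0.0228). Rpl13 had levels of 7.52, 7.53 and 7.69 with WT, against 7.83, 7.99 and 8.08 in void cells (log2 −0.39 ± 0.11, adjusted p = 0.0333). Neither gene's groups overlapped, and each void group had its lowest value on void 1. Rpl38, which has been tied in mice to the translation of Hox mRNAs, had levels of 7.51, 7.51 and 7.58 with WT, against 7.83, 7.88 and 7.99 in void cells (log2 −0.37 ± 0.09, adjusted p = 0.018). Rplp0 had levels of 7.67, 7.88 and 7.94 with WT, against 8.14, 8.17 and 8.26 in void cells (log2 −0.36 ± 0.09, adjusted p = 0.02). Without scaling the same differences were −0.02 for Rps27a, 0.01 for Rpl13, 0.03 for Rpl38 and 0.04 for Rplp0, against the all-gene median of 0.37, and after quantile normalization none of the 4 was called (adjusted p from 0.134 to 0.481).

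Rpl9, a large subunit protein, fell with WT, D361E, the N-fragment and N+C relative to the 75th percentile. Its levels were 8.09, 8.14 and 8.20 with WT, against 8.50, 8.48 and 8.48 in void cells (log2 −0.34 ± 0.06, adjusted p = 0.00273). The differences were −0.23 with D361E (adjusted p = 0.0225), −0.17 with the N-fragment (adjusted p = 0.0449) and −0.18 with N+C (adjusted p = 0.0245). All void arrays were above all arrays of these groups, and after quantile normalization the difference was called with N+C alone of the 4 (adjusted p = 0.0472). The C-fragment arrays (8.38, 8.22 and 8.39) also lay below all void arrays, though that difference was not called relative to the 75th percentile.

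With D361E, 8 members fell and 0 rose, with a median of −0.15 against −0.04 over all genes. Of all genes 7.44% fell and 6.04% rose, and at an unadjusted p under 0.05 there were 25 members lower and 0 higher (14.4% and 11.2% of all genes). Among the 8 called were Rps27l, Rpl21, Rps19, Rpl34, Rpl9, Rpl6 and Rpl22. After quantile normalization 3 fell and 0 rose (6.30% and 7.62% of all genes), and without scaling 0 fell and 0 rose (2.96% and 9.88% of all genes). When scaled to the family median 1 fell, Rps27l, and 21.7% of all genes were called in either direction. With slide as a block 14 fell and 0 rose (10.4% and 8.93% of all genes). The summed haematopoietic marker level was 2.22 to 2.38 with D361E, against 2.75 to 2.91 in void cells, with none of the 3 called, and its part in the result was not tested. Without D361E 2 the count was 15 and the median −0.21, and without void 3, D361E 1 or D361E 3 the count was 4.

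With the N-fragment, 10 members fell and 2 rose, with a median of −0.09 against −0.06 over all genes. Of all genes 17.9% fell and 13.2% rose, so the share of members called was below that of all genes in both directions. At an unadjusted p under 0.05 there were 18 members lower and 3 higher (23.2% and 16.7% of all genes). After quantile normalization 4 fell and 3 rose (15.6% and 15.2% of all genes), and with no scaling 38 rose and 0 fell (33.7% and 5.98% of all genes). When scaled to the family median 3 rose and 1 fell, and 30.9% of all genes were called in either direction. Of 4 fibroblast markers measured, of 6 listed, 2 rose with the N-fragment, and their summed level ran from 1.5 to 1.79 log2 units over the 75th percentile there, against 0.34 to 0.7 in void cells; their part in the result was not tested. The number of members that rose was 1 without void 2, void 3 or N-fragment 3 and 0 without N-fragment 2. The number that fell was 3 without void 2 and 2 without void 3 or without N-fragment 3.

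With the C-fragment, 1 member fell, Rpl21, and 0 rose, with a median of −0.06 against −0.02 over all genes. Of all genes 8.25% fell and 4.88% rose, and at an unadjusted p under 0.05 there were 8 members lower and 1 higher (16.4% and 10.3% of all genes). After quantile normalization 1 fell and 1 rose (7.45% and 5.53% of all genes), and with no scaling 7 rose and 0 fell (15.3% and 2.74% of all genes). The quantile rise and the 1 member higher when scaled to the family median were both Rpl7l1 (13.0% of all genes in either direction). Without void 1 the numbers were 2 lower and 1 higher, and without any other single array of the void or C-fragment group no member fell. Summed marker levels were −0.63 to −0.45 for fibroblasts (1 of 4 fell) and 2.16 to 2.3 for haematopoietic cells (1 of 3 fell and 1 rose) with the C-fragment, against 0.34 to 0.7 and 2.75 to 2.91 in void cells, and their part in the result was not tested.

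With N+C, 6 members fell and 0 rose, with a median of −0.10 against −0.03 over all genes. Of all genes 12.8% fell and 11.8% rose, and at an unadjusted p under 0.05 there were 18 members lower and 1 higher (18.9% and 16.3% of all genes). All 6 encode large subunit proteins, among them Rpl21, Rpl34, Rpl9, Rpl36a and Rpl6. After quantile normalization 4 fell and 2 rose (11.6% and 13.5% of all genes), and with no scaling 7 rose and 0 fell (24.9% and 4.75% of all genes). When scaled to the family median 3 rose and 0 fell, and 27.9% of all genes were called in either direction. With slide as a block 15 fell and 1 rose (16.8% and 16.6% of all genes). The number that fell was 3 without void 2 and 2 without void 3, and 1 member was higher without N+C 4 or without N+C 5. Summed marker levels were −2.44 to −0.58 for fibroblasts (1 of 4 fell) and 1.94 to 2.47 for haematopoietic cells (1 of 3 fell) with N+C, against 0.34 to 0.7 and 2.75 to 2.91 in void cells. For melanocytes they were 10.28 to 10.37 with N+C (1 of 10 fell), against 10.38 to 10.48 in void cells, and their part in the result was not tested.

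Between D361E and WT no member was called in either direction by limma, at a median log2 difference of 0.07 against 0.01 over all genes. Of all genes 2.42% were higher and 1.79% lower in D361E, and at an unadjusted p under 0.05 there were 7 members higher and 2 lower (9.18% and 6.22% of all genes). The median difference was 0.02 without D361E 2, −0.02 within slide 1, −0.03 after quantile normalization and −0.17 without scaling, where 0 members were higher and 5 lower against an all-gene median of −0.24 (0.694% and 6.80% of all genes). After quantile normalization no member was called either (2.66% of all genes higher and 1.65% lower). The largest difference was that of Rps21 (log2 −0.60 ± 0.51, adjusted p = 0.6), a member whose level moved with the slide.

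**Figure D4:**
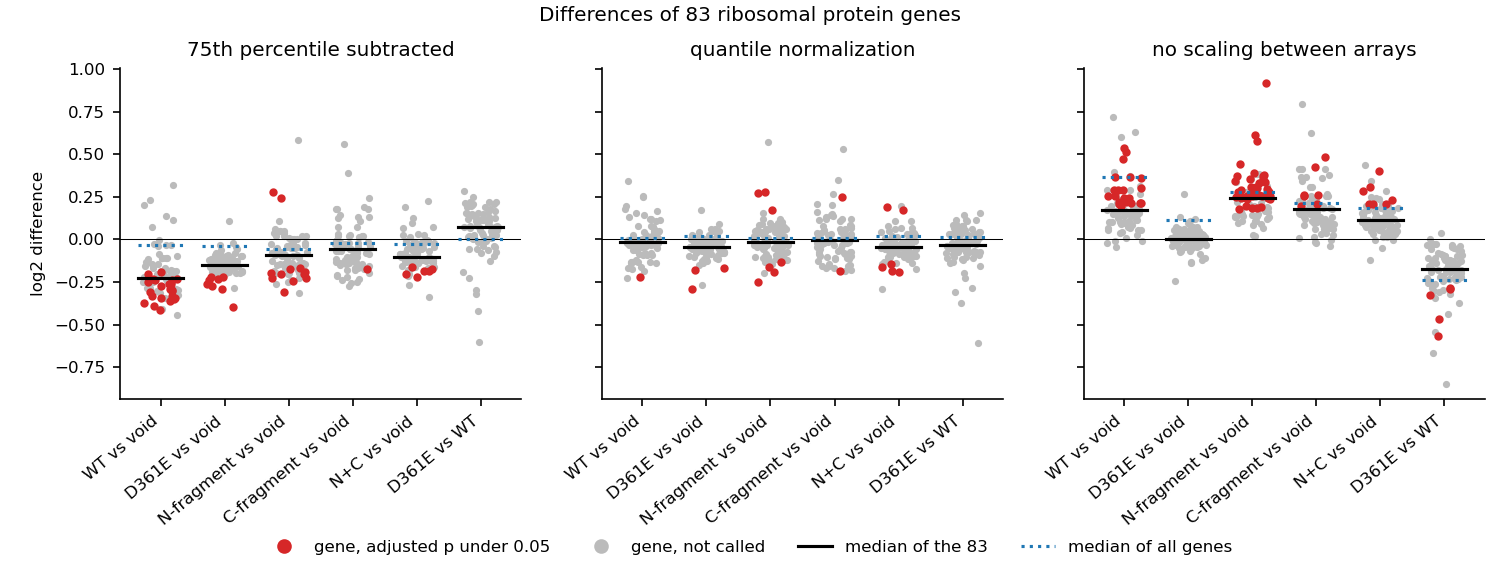
Log2 differences of the 83 ribosomal protein genes (points, red where the adjusted p is under 0.05) in 6 comparisons under 3 scalings between arrays. Black bars are the members' medians and dotted blue bars the medians of all genes. The WT against void median is −0.23 relative to the 75th percentile, −0.02 after quantile normalization and 0.17 without scaling.

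Rpl21, a large subunit protein, was the one member that fell against void with all 5 constructs relative to the 75th percentile. Its levels were 6.28, 6.25 and 6.24 with WT, 6.18, 6.25 and 6.17 with D361E, 6.22, 6.32 and 6.26 with the N-fragment, and 6.33, 6.36 and 6.28 with the C-fragment. The N+C arrays had 6.26, 6.37, 6.28, 6.23 and 6.24, and the void arrays 6.47, 6.49 and 6.52. All 3 void arrays, on 3 slides, were above all 17 others. The log2 differences were −0.24 ± 0.05 with WT (adjusted p = 0.00617), −0.29 ± 0.05 with D361E (adjusted p = 0.000794), −0.22 ± 0.05 with the N-fragment (adjusted p = 0.00228), −0.17 ± 0.05 with the C-fragment (adjusted p = 0.0302) and −0.22 ± 0.04 with N+C (adjusted p = 0.00172). The 5 comparisons share the void arrays. After quantile normalization the fall was called with D361E, the N-fragment, the C-fragment and N+C (adjusted p = 0.0078, 0.00198, 0.00763 and 0.00127) and not with WT (log2 −0.13, adjusted p = 0.0629). Within slides the difference ran from −0.32 to −0.10 in 8 of 8 comparisons with void. Without scaling it was 0.16, −0.14, 0.11, 0.06 and −0.00 for WT, D361E, the N-fragment, the C-fragment and N+C, below the all-gene median each time, and after scaling to the family median it was called in none of the 5 (adjusted p from 0.093 to 0.92). The C-fragment call was lost when any of 5 single arrays was left out, namely void 2, void 3 or any C-fragment array.

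Rps27l, a paralog of the small subunit gene Rps27 that p53 induces in human cells, was lower with full-length p65 and with the N-fragment. Its levels were 6.44, 6.48 and 6.52 with WT, 6.35, 6.47 and 6.47 with D361E, and 6.68, 6.68 and 6.51 with the N-fragment. The C-fragment arrays had 6.68, 6.67 and 6.71, the N+C arrays 6.81, 6.95, 6.80, 6.75 and 6.93, and the void arrays 6.72, 6.87 and 6.89. The WT, D361E, N-fragment and C-fragment arrays all lay below the void arrays, with N+C overlapping void, and the C-fragment difference was not called. The fall was −0.34 ± 0.07 with WT (adjusted p = 0.00458), −0.40 ± 0.07 with D361E (adjusted p = 0.000897) and −0.21 ± 0.07 with the N-fragment (adjusted p = 0.0294). After quantile normalization all 3 were still called (adjusted p = 0.0185, 0.00166 and 0.0337), and after scaling to the family median D361E alone of the 3 (log2 −0.22, adjusted p = 0.01). Without scaling the differences were 0.06, −0.24 and 0.13, against all-gene medians of 0.37, 0.12 and 0.28. The N-fragment call was lost without void 2, void 3 or N-fragment 3. Its parent gene Rps27 fell with WT (log2 −0.20, adjusted p = 0.0412), a difference that was 0.01 after quantile normalization.

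Rpl35a, a large subunit protein, had the largest called fall with the N-fragment. Its levels were 6.56, 6.58 and 6.48 with the N-fragment, against 6.82, 6.85 and 6.87 in void cells (log2 −0.31 ± 0.05, adjusted p = 0.000389). The 3 N-fragment arrays were lower than all other 17 arrays. It was called after quantile normalization (log2 −0.25, adjusted p = 0.000577) and after scaling to the family median (log2 −0.21, adjusted p = 0.00379), and was 0.03 without scaling. Rpl35a also fell with WT (log2 −0.19, adjusted p = 0.0371), where a second, dimmer probe gave a difference of 0.12 (adjusted p = 0.769) and the value was 0.04 after scaling to the family median. The WT call was lost without void 2 (adjusted p = 0.105), void 3 (0.123), WT 2 (0.164) or WT 3 (0.111).

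Rps7 and Rpl7l1 were the 2 members that rose with the N-fragment, and did so under all 4 scalings given here. Rps7, a small subunit protein that can bind Mdm2, had levels of 6.62, 6.82 and 6.73 with the N-fragment, against 6.56, 6.44 and 6.44 in void cells (log2 0.24 ± 0.07, adjusted p = 0.0108). The groups did not overlap, with N-fragment 1 nearest to void 1. The adjusted p was 0.00355 after quantile normalization, 0.00144 without scaling and 0.00502 after scaling to the family median, and 0.0625 without N-fragment 2. Rpl7l1, a paralog of the large subunit gene Rpl7, had levels of 0.13, 0.39 and 0.33 with the N-fragment, against 0.13, −0.08 and −0.05 in void cells (log2 0.28 ± 0.08, adjusted p = 0.0138). N-fragment 1 and void 1 overlapped, and the call was lost without void 2 (adjusted p = 0.066), void 3 (0.0503), N-fragment 2 (0.0732) or N-fragment 3 (0.0531). With the C-fragment its levels were 0.26, 0.24 and 0.24, above all void arrays (log2 0.25 ± 0.08, adjusted p = 0.0547, and 0.0495 after quantile normalization).

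Rpl22l1, a paralog that can stand in for the large subunit protein Rpl22, was highest with the N-fragment and split within N+C. Its levels were 6.01, 5.94 and 5.86 with the N-fragment, against 5.38, 5.27 and 5.41 in void cells, with no overlap (log2 0.58 ± 0.22, adjusted p = 0.0613). The adjusted p was 0.00536 in a fit of these 2 groups alone, 0.0351 with slide as a block, 0.0683 after quantile normalization and 0.0315 after scaling to the family median. The N+C arrays 1 to 3 had 5.06, 5.00 and 4.87, below every void array, and N+C 4 and N+C 5 had 5.79 and 5.96, above every void array. N+C 1 and N+C 4 shared slide 5. Myc, a transcription factor that drives ribosome production, had levels of 1.64, 1.64 and 1.76 on N+C 1 to 3 and of 0.83 and 0.81 on N+C 4 and 5, against 0.66, 0.80 and 0.84 in void cells, so that it split in the other direction. Other members split as well. Rps19bp1 had 3.69, 3.53 and 3.64 on N+C 1 to 3, below every void array. On N+C 4 and 5 it had 4.32 and 4.48, above every void array. Rpl15 was also lower on N+C 1 to 3 (6.57 to 6.67) than on N+C 4 and 5 (7.19 on both). Rps23 was higher on N+C 1 to 3 (7.52 to 7.72) than on N+C 4 and 5 (7.26 and 7.28). Rpl22 itself fell with WT (log2 −0.26, adjusted p = 0.0116), D361E (log2 −0.22, adjusted p = 0.0199) and the N-fragment (log2 −0.20, adjusted p = 0.0153), none of them called after quantile normalization (adjusted p from 0.0975 to 0.488).

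Rps21, Rps3 and the retrocopy Rps23rg1 had their lowest level of the group on the slide 2 array in each of the 4 groups with an array there. The slide 2 arrays had Rps21 levels of 2.97 (D361E 2), 3.03 (N-fragment 1), 3.29 (N+C 5) and 3.23 (void 3), the 4 lowest of the 20. The other 16 arrays lay between 3.99 and 5.08. On average slide 2 deviated from the group means by −0.91 for Rps21, −0.49 for Rps23rg1 and −0.33 for Rps3, and by 0.29 for Rps19bp1 and 0.28 for Rpl29. The median range over slides was 0.15 for all members. Rps3, the small subunit protein named above as a partner of p65, had levels of 5.78, 5.64 and 5.57 with WT, against 5.56, 5.54 and 5.28 in void cells (log2 0.20 ± 0.23, adjusted p = 0.641). With the C-fragment, none of whose arrays was on slide 2, it had 5.75, 5.81 and 5.99 (log2 0.39 ± 0.23, adjusted p = 0.289). All WT and all C-fragment arrays lay above all void arrays, whose lowest was the slide 2 array, but neither difference passed the test.

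**Figure D5:**
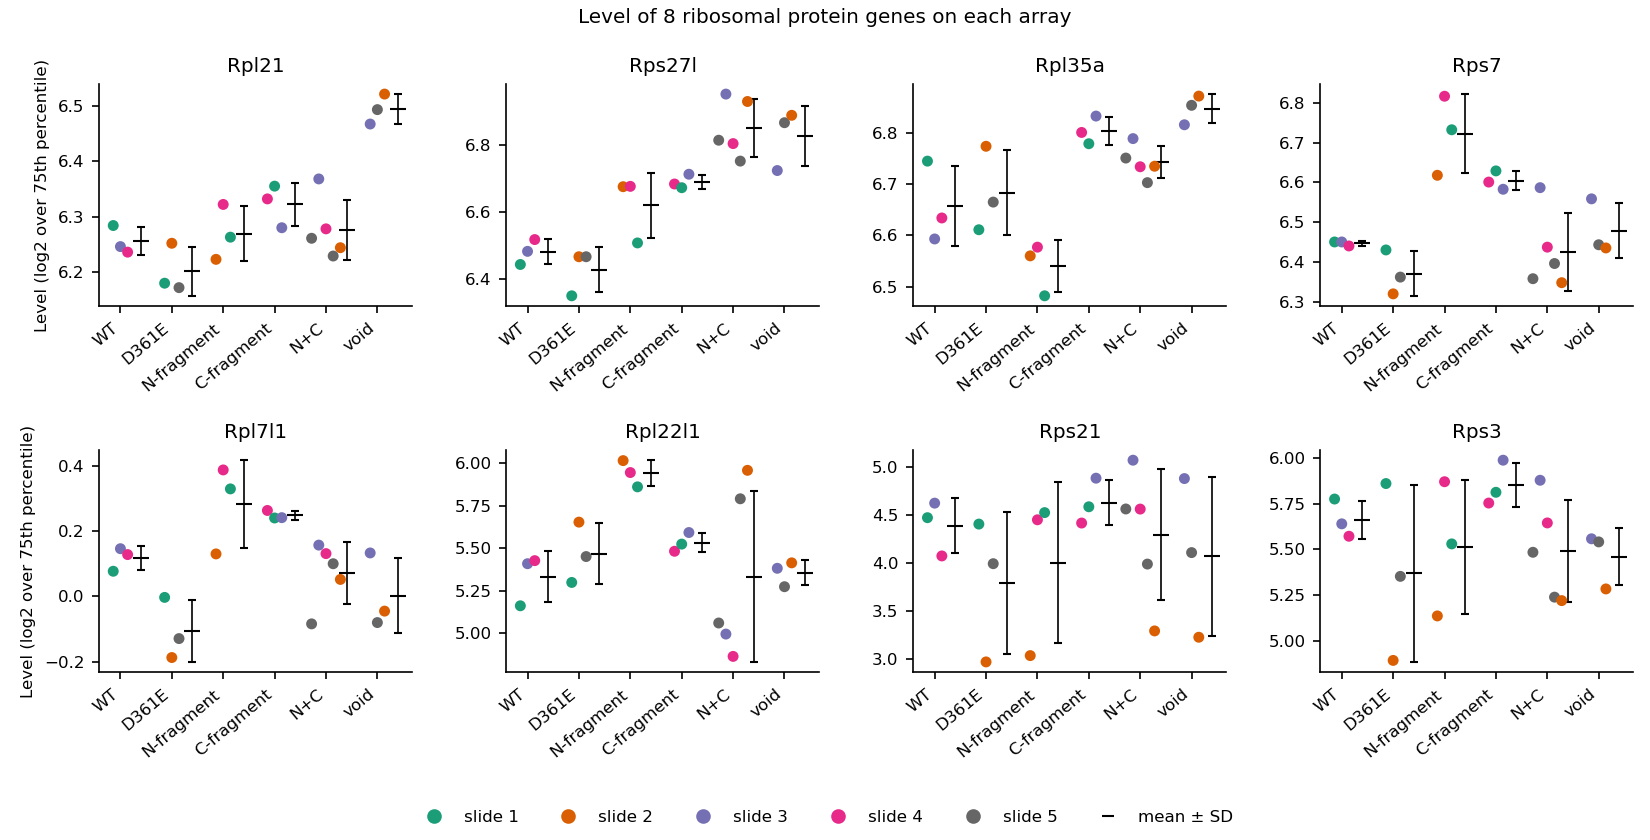
Level of 8 members on each of 20 arrays (points, coloured by slide; log2 over the 75th percentile), with group means and standard deviations. The void arrays of Rpl21 lie above all others, the N-fragment arrays of Rpl35a below all others, Rpl22l1 splits within N+C, and the slide 2 arrays are the 4 lowest for Rps21.

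Of the 3 P-stalk genes 2 fell with WT and 1 with the N-fragment, where 6.16% and 17.9% of all genes fell. Rplp2 fell with WT (log2 −0.33 ± 0.09, adjusted p = 0.0239) and with the N-fragment (log2 −0.24 ± 0.09, adjusted p = 0.0456), and neither was called after quantile normalization (adjusted p = 0.693 and 0.262). Rplp1 had levels of 7.86, 7.93, 7.97, 7.87 and 7.89 with N+C, against 7.67, 7.82 and 7.94 in void cells. The difference was 0.10 relative to the 75th percentile (adjusted p = 0.359), 0.17 after quantile normalization (adjusted p = 0.00692) and was called when scaled to the family median (adjusted p = 0.00434), while the groups overlapped.

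For members with a reported role outside the ribosome, the share that fell with WT and D361E was above that of all genes. With WT it was not above the share of all measured members that fell. Of the 12 genes with such a role 3 fell and 0 rose with WT (6.16% and 3.22% of all genes), and 3 fell and 0 rose with D361E (7.44% and 6.04%). The 25% of the 12 that fell compares with 27.7% of all measured members with WT and 9.64% with D361E. With the N-fragment 2 of the 12 fell and 1 rose (17.9% and 13.2% of all genes). None was called with the C-fragment (8.25% of all genes fell and 4.88% rose) or N+C (12.8% and 11.8%). The calls were those of Rps27l, Rps7 and Rpl22 above and of Rps19, a small subunit protein mutated in Diamond-Blackfan anaemia. Rps19 had levels of 6.03, 6.22 and 6.10 with D361E, against 6.32, 6.41 and 6.45 in void cells (log2 −0.28 ± 0.06, adjusted p = 0.00302, and 0.0258 after quantile normalization). With WT its difference was −0.23 (adjusted p = 0.0147, and 0.107 after quantile normalization). Rpl5, which carries 5S rRNA and binds Mdm2 with Rpl11, had levels of 5.52, 5.37 and 5.39 with D361E, against 6.02, 5.65 and 5.58 with WT (log2 −0.32 ± 0.11, adjusted p = 0.143). Differences from void were −0.25 with WT for Rpl11 (adjusted p = 0.0559), −0.24 for Rpl26, whose human protein binds p53 mRNA (adjusted p = 0.0527), and −0.28 for Rps14 (adjusted p = 0.134). For Rps6, the S6 kinase substrate, the WT difference was −0.20 (adjusted p = 0.0885), and for Rpl13a and Rpl23 it was −0.04 and −0.08 (adjusted p = 0.843 and 0.632).

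Other calls relative to the 75th percentile are given next, and without scaling none of the members' falls against void was called. Rpl34 encodes a large subunit protein, and its pyrimidine run, the longest of those shown, lies mostly before the annotated start. It fell with WT (log2 −0.25, adjusted p = 0.016), D361E (log2 −0.24, adjusted p = 0.0152) and N+C (log2 −0.19, adjusted p = 0.0183), and with none after quantile normalization. Rps10, a small subunit protein, fell with the N-fragment (log2 −0.23, adjusted p = 0.0357, and 0.221 after quantile normalization). Rpl36al, an intron-less paralog of Rpl36a, was called in no comparison (log2 from −0.13 to 0.11), and nor was Rps19bp1 (log2 from −0.25 to 0.13). The N+C arrays of Rps19bp1 split as given above. More than 1 kept probe was available for 52 members. For 4 called differences another probe pointed the other way, uncalled in each case: 0.24 for Rpl13 and 0.12 for Rpl35a with WT, 0.03 for Rpl22 with D361E and 0.05 for Rpl6 with N+C.

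Of 35 genes for ribosome assembly measured, 19 rose and 0 fell with the N-fragment, 16 rose and 0 fell with the C-fragment and 12 rose and 0 fell with N+C, where 13.2, 4.88 and 11.8% of all genes rose. With WT 3 fell and 0 rose, and with D361E 2 fell and 0 rose (6.16% and 7.44% of all genes fell). The list's median differences were 0.29, 0.23 and 0.15 with the N-fragment, the C-fragment and N+C, and −0.03 and 0.01 with WT and D361E. After quantile normalization 20, 13 and 12 rose with the N-fragment, the C-fragment and N+C (15.2, 5.53 and 13.5% of all genes). Rrp9, a U3 snoRNP protein, had levels of 1.88, 1.69 and 1.60 with the N-fragment, against 0.51, 0.87 and 0.90 in void cells (log2 0.96 ± 0.17, adjusted p = 0.000357). Rrp12, a factor of small subunit export, rose with the N-fragment too (log2 0.68 ± 0.13, adjusted p = 0.00063). Ddx21, a nucleolar RNA helicase, had levels of 2.92, 2.96 and 3.01 with the C-fragment, against 2.56, 2.30 and 2.24 in void cells (log2 0.60 ± 0.10, adjusted p = 0.00132). Polr1b, a subunit of RNA polymerase I, rose with N+C (log2 0.48 ± 0.08, adjusted p = 0.00032). Sbds, which helps release eIF6 from the large subunit, fell with WT (log2 −0.34, adjusted p = 0.00187) and D361E (log2 −0.40, adjusted p = 0.000215).

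Among 21 regulators of ribosomal protein synthesis, 2 rose and 2 fell with the N-fragment, 2 rose and 1 fell with N+C, 2 fell with D361E and none was called with WT or the C-fragment. Of the list 9.52% rose and 9.52% fell with the N-fragment, against 13.2% and 17.9% of all genes, so neither share was above the background. Of all genes 11.8% rose and 12.8% fell with N+C, and 7.44% fell with D361E. Myc rose with the N-fragment (log2 1.04 ± 0.21, adjusted p = 0.00114) and fell with D361E (log2 −0.71 ± 0.21, adjusted p = 0.0309). It was also called higher with N+C, where N+C 4 and 5 (0.83 and 0.81) lay within the range of the void arrays (0.66 to 0.84). Larp1, which holds TOP mRNAs when mTOR is inactive, fell with D361E (log2 −0.21, adjusted p = 0.0295), its groups overlapping. Tsc1, an inhibitor of mTOR signalling, fell with the N-fragment (log2 −0.34, adjusted p = 0.00211), as did Eif4ebp2, an inhibitor of cap-dependent translation (log2 −0.58, adjusted p = 0.00367). Rptor, a subunit of mTOR complex 1, rose with N+C (log2 0.32, adjusted p = 0.0104). Its levels were 2.57, 2.54 and 2.30 on N+C 1 to 3 and 2.22 and 2.13 on N+C 4 and 5, against 2.02, 2.03 and 2.05 in void cells.

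Of 18 other TOP mRNAs, 4 rose and 0 fell with the N-fragment, 2 rose and 0 fell with the C-fragment, 1 rose and 1 fell with N+C, and 1 fell with each of WT and D361E. The shares that rose were 22.2% with the N-fragment and 11.1% with the C-fragment, against 13.2% and 4.88% of all genes, and the 5.56% that fell with WT, D361E or N+C compares with 6.16, 7.44 and 12.8% of all genes. Nap1l1, a histone chaperone, rose with the N-fragment (log2 0.37 ± 0.04, adjusted p = 1.18e-05) and the C-fragment (log2 0.23 ± 0.04, adjusted p = 0.00331). Hnrnpa1, an RNA-binding protein, rose with the N-fragment (log2 0.43 ± 0.07, adjusted p = 0.000232). Eif3h, a subunit of initiation factor 3, fell with WT (log2 −0.24, adjusted p = 0.0306) and D361E (log2 −0.23, adjusted p = 0.0306). Tpt1 fell with N+C (log2 −0.30, adjusted p = 0.00716).

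Of 4 ribosomal proteins measured whose names the rule does not take, Rack1 fell with WT (log2 −0.37, adjusted p = 0.0175). Of 78 mitochondrial ribosomal protein genes, 10 fell and 7 rose with the N-fragment, 7 fell and 10 rose with N+C, 4 fell with WT, 5 fell with D361E, and 1 fell and 1 rose with the C-fragment. With the N-fragment 12.8% of the list fell and 8.97% rose, against 17.9% and 13.2% of all genes, with N+C 8.97% fell and 12.8% rose, against 12.8% and 11.8%, and with WT 5.13% fell, against 6.16%. Of all genes 7.44% fell with D361E, and 8.25% fell and 4.88% rose with the C-fragment. Mrps6 fell with all 5 constructs, by 0.67 with WT, 0.81 with D361E, 1.21 with the N-fragment, 0.37 with the C-fragment and 0.48 with N+C on the log2 scale (adjusted p from 5.59e-08 to 0.014). The void arrays are shared by these 5 comparisons.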

How the data were processed

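Per the file headers, the authors extracted the deposited intensity values with Agilent Feature Extraction 10.7.3.1, and the processed signal is background-subtracted and not scaled between arrays. Spots flagged as outliers were left out, and 28663 of 39429 non-control probes were named through a RefSeq gene table. Intensities were put on the log2 scale, the array's 75th percentile was subtracted, a probe was kept if well above background on 3 or more of 20 arrays, and each gene was represented by its brightest probe. limma 3.58.1 in R 4.3.3 was fitted to all 20 arrays and 6 groups (residual df 14), with a call at an adjusted p under 0.05 over all 18738 genes. The fit was tested on simulated data.

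Members, gene lists and the rule for named genes (per comparison the 4 largest rises and falls among called members without overlap, the paralogs, the P-stalk, members with other roles, the brightest, dimmest, most and least variable, and up to 2 called genes of each other list and direction) were chosen with earlier results of these data known. The classes of retrocopies and the level ranges were added after these values were seen. Alternatives were quantile and cyclic loess normalization, no scaling, scaling to the family median, normexp with offset 50 on the median spot and local background signals, other filters, the mean of probes, slide as a block and arrays left out. Array number limits the precision. No sample was left out, and a few genes that the rule names are not reported here.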

Additional observations from a re-analysis of the deposited data

Results flagged for a closer look

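In N+C, Rpl36al had levels of 5.79, 5.81, 5.69, 5.83 and 5.82. N+C 3, at 5.692, lay apart from the other 4 arrays, with a gap of 0.72 of the group's range to the nearest (5.794). This was 1 of 70 such checks, and chance flags about 1 group in 20.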

How the results depend on the processing

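No paired analysis was possible because the labels give no replicate number that groups share; the slides, from the file headers, were used as a block instead. Counts are members lower or higher than void of 83, and medians are their log2 differences. All-gene shares are given above for quantile normalization, no scaling, scaling to the family median, and slide as a block with D361E and N+C. For the other settings, and wherever arrays were left out, here or above, all-gene shares are not given. Those counts therefore cannot be set against a background. Quantile normalization gave 1 lower and a median of −0.0176 with WT, 3 and −0.0438 with D361E, 4 and −0.0177 with the N-fragment, a median of −0.00105 and 1 higher with the C-fragment, 2 higher and −0.0444 with N+C, and −0.0344 for D361E against WT. Cyclic loess gave 7 lower (median −0.11) for WT, 5 (−0.0671) for D361E, 6 for the C-fragment and 11 for N+C. No scaling gave 0 lower with each construct against void, with 22 higher (0.17) with WT, a median of 0.00412 with D361E, 38 higher (0.24) with the N-fragment, 7 (0.18) with the C-fragment and 7 (0.11) with N+C, and for D361E against WT 5 lower (−0.17). Scaled to the family median, 1 was higher and 0 lower with WT, 1 lower with D361E and with the N-fragment, 1 higher and 0 lower with the C-fragment, and 3 higher and 0 lower with N+C. Normexp with quantile normalization gave 1 lower (−0.0195) with WT, 2 (−0.0417) with D361E, 4 lower and 4 higher (0.00265) with the N-fragment, a median of 0.000119 with the C-fragment, 3 lower and 1 higher (−0.0455) with N+C, and −0.024 for D361E against WT.

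Without a filter on dim probes 8 were lower with WT, 4 with D361E, 2 with the N-fragment, 0 with the C-fragment and 2 with N+C. With only the 2 groups compared the counts were 10, 1, 2 (with 1 higher), 0 and 0. With slide as a block 14 were lower for D361E, 2 for the C-fragment and 15 for N+C (1 higher). With the mean of a gene's probes 2 were lower with the C-fragment and 1 higher with N+C, and 1 was higher with the C-fragment under the filter on all arrays or the median of probes above background on all arrays. Within slides the median was −0.0946 for D361E on slide 2, 0.0161 for the C-fragment on slide 3, −0.15 and −0.0114 for N+C on slides 2 and 3, and −0.0203 for D361E against WT on slide 1.

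Some arrays were left out after the data were seen. Without slide 2, 14 were lower with WT, 6 with the N-fragment and 0 with the C-fragment, 1 was higher with N+C, and the D361E against WT median was 0.0205. Without N+C 4 and 5, 1 was higher with the C-fragment and 1 with N+C. Without N+C 1 to 3, 37 were lower with WT, 1 higher with the C-fragment and 2 higher with N+C, and without all N+C arrays 1 was higher with the C-fragment. Leaving out each array in turn gave 4 to 31 lower with WT (medians −0.25 to −0.19), 4 to 15 with D361E (−0.21 to −0.11), 2 to 14 lower and 0 to 2 higher with the N-fragment (−0.13 to −0.07), 0 to 2 lower and 0 to 1 higher with the C-fragment (−0.09 to −0.03), 2 to 9 lower and 0 to 1 higher with N+C (−0.13 to −0.07), and medians of 0.0205 to 0.102 for D361E against WT.

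Single genes changed sign without scaling as follows. With WT they were Rpl13 (0.01001), Rpl21 (0.16), Rpl22 (0.14), Rpl34 (0.15), Rpl35a (0.21), Rpl38 (0.0288), Rpl9 (0.0555), Rplp0 (0.0399), Rplp2 (0.065), Rps19 (0.17) and Rps27l (0.0558). With the N-fragment they were Rpl21 (0.11), Rpl22 (0.13), Rpl35a (0.0262), Rpl9 (0.16), Rplp2 (0.0926), Rps10 (0.11) and Rps27l (0.13), with the C-fragment Rpl21 (0.0641), and with N+C Rpl34 (0.0262), Rpl6 (0.0515) and Rpl9 (0.0294). Rpl35a with WT was 0.0394 when scaled to the family median, and Rps27a with WT 0.0444 under normexp. The cause of these shifts was not tested. Of 35 single differences 28 kept their direction but were no longer called when scaled to the family median, 24 with only the groups compared, 23 without void 3, 22 under normexp, 21 after quantile normalization, 20 without a filter, 15 without void 2, 12 without slide 2, 11 under cyclic loess, 9 with the mean of probes and 2 with slide as a block.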
